A study of Homo sapiens with 9 samples.

Results

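Imprinted genes are expressed mainly from the copy inherited from one parent, and here 32 known human imprinted genes were followed in embryonic stem cells grown with butyrate and DZNep. The members were all probe sets of the deposited array table annotated to one of these genes, alone or together with a neighbour. They numbered 104 of the 54613 non-control probe sets and covered 31 of the 32 genes, since RTL1 had none, among 19775 genes that have a probe set of their own. A filter on low values kept 61 of these probe sets, from 28 genes. It required a signal above the array's own median on at least 3 of the 9 arrays. The other 43 did not pass, and they included every probe set of MKRN3, NAP1L5 and DIRAS3.

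The study profiled total RNA of HSF-6, a line of human embryonic stem cells, on 9 Affymetrix U133 Plus 2 arrays in 3 groups of 3. Cells of subline HSF-6(S9) and cells of subline HSF-6(8) were each grown with butyrate, an inhibitor of histone deacetylases, together with DZNep, which blocks S-adenosylhomocysteine hydrolase and so lowers histone methylation. The third group was HSF-6(8) grown without either compound, and no untreated HSF-6(S9) cells were analysed here. All cells were cultured over 11 passages, with 6 days given as the growth time, and each compound alone was not tested.

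The labels do not describe how the sublines were derived, what the control cells received in place of the compounds, or whether the 3 arrays of a group were separate cultures. What the p-values measure is thus the spread from array to array, which may be technical. Treated HSF-6(S9) and untreated HSF-6(8) differ in both subline and treatment, so these cannot be told apart in that comparison. It shares its control arrays with the comparison within HSF-6(8). In bulk RNA, fewer cells of a type and less RNA per cell cannot be told apart.

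Imprinting is set in the germ line by DNA methylation of control regions, which differs between the egg and the sperm. The marks survive the wave of demethylation in the early embryo and keep one copy of each gene silent, with help from the zinc finger protein ZFP57, TRIM28 and DNMT1 at methylated copies and from CTCF at some unmethylated ones. Many imprinted genes act on fetal growth, the placenta or the brain, and their monoallelic state is known to be variable in cultured pluripotent cells. An array sums both copies and the cells of a culture, so none of the values below tells which parental copy was expressed.

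Some arrays did not sit with their group. Over 10504 probe sets brighter than 500 on all arrays, the spread of log2 ratios (robust SD) between the first HSF-6(S9) array and the first treated HSF-6(8) array was 0.118. This was the smallest value of all 36 array pairs, against 0.308 and 0.469 between the first HSF-6(S9) array and the others of its own group. Over the 61 imprinted probe sets these 2 arrays had a median absolute log2 difference of 0.10 and differed at least 2-fold at 2 probe sets, while the first and second HSF-6(S9) arrays had 0.41 and differed at 7. The first HSF-6(S9) array was at 0.162 to the second treated HSF-6(8) array and at 0.228 to the second untreated array, both nearer than its own group, and at 0.406 to the third treated HSF-6(8) array. The main HSF-6(S9) results are therefore also given without it. The third array stood apart from the others of its group in treated HSF-6(8) (0.405 and 0.412, against 0.153 between the first and second) and in untreated HSF-6(8) (0.335 and 0.423, against 0.19). In HSF-6(S9) it was the second array that did (0.469 and 0.52, against 0.308 between the first and the third).

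**Figure D1:**
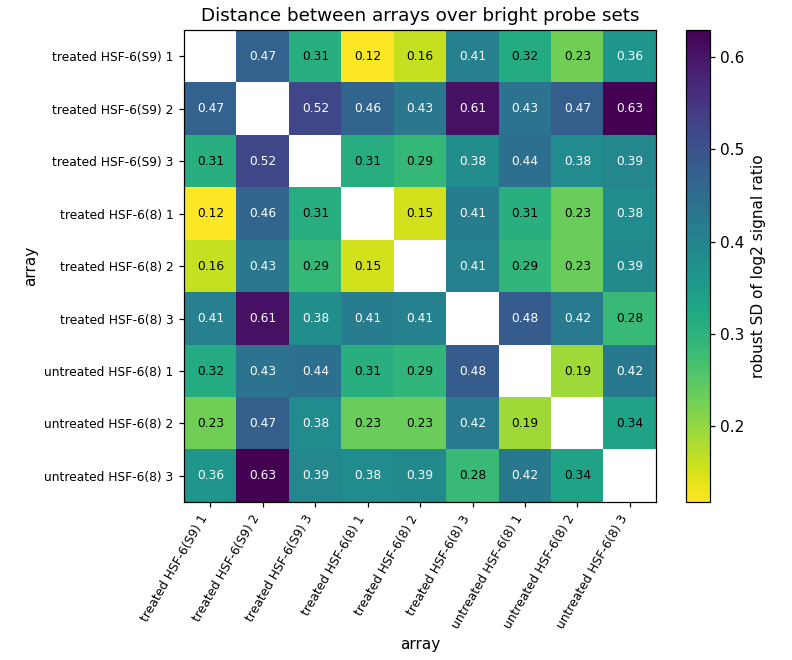
Robust SD of the log2 signal ratio between each pair of the 9 arrays over probe sets brighter than 500 on all arrays, with low values (yellow) for arrays that resemble each other. The pair of first treated arrays, labelled HSF-6(S9) and HSF-6(8), has the smallest value at 0.12.

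Within HSF-6(8), 2 of the 61 imprinted probe sets were called higher with butyrate and DZNep than without, those of NNAT and of H19 with MIR675, and 0 were called lower. A call needed an adjusted p under 0.05 in limma over all 29328 tested probe sets and a change of at least 2-fold. Over all tested probe sets 0.273% were called higher and 0.0273% lower. The median log2 difference of the 61 was -0.01, with 30 positive and 31 negative, against a median of 0.02 for all tested probe sets. Log2 differences were taken after adding 16 to each signal, which understates the change of dim probe sets.

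Treated HSF-6(S9) against untreated HSF-6(8) gave 3 called higher, NNAT and both probe sets of H19 with MIR675, and 0 lower, while 0.314% of all tested probe sets were called higher and 0.075% lower. The imprinted median was 0.10 and that of all probe sets -0.01. Between the treated sublines 0 imprinted probe sets were called in either direction, as were 0 of all probe sets by limma, with 2 and 712 at an unadjusted p under 0.05. Without the first HSF-6(S9) array, which lay closest to the first treated HSF-6(8) array, 0 of all tested probe sets were again called in this comparison.

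NNAT, in 20q11, encodes neuronatin, a small membrane proteolipid of the developing brain, and is expressed from the paternal copy. Its single probe set had signals of 698, 566 and 1411 on the HSF-6(S9) arrays and 695, 824 and 603 on the treated HSF-6(8) arrays, against 43.3, 32.5 and 41.6 on the untreated arrays. All 6 treated arrays lay above all untreated ones, and the untreated signals were below the array medians of 64.8 to 82.9. The log2 difference was 3.94 ± 0.31 (SE) for HSF-6(S9) and 3.71 ± 0.31 for HSF-6(8) against untreated cells (limma adjusted p = 0.000994 and 0.0014, n = 3 arrays each). Without the first HSF-6(S9) array it was 4.05 in that subline (adjusted p = 0.00722).

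NNAT lies inside an intron of BLCAP, a small membrane protein gene that shares its imprinted locus. BLCAP had signals of 2306, 3180 and 2040 on the HSF-6(S9) arrays, 2456, 2229 and 1491 on the treated HSF-6(8) arrays and 2423, 2548 and 1962 on the untreated arrays. The groups overlapped, and the log2 difference was 0.10 (95% interval -0.47 to 0.67) for HSF-6(S9) and -0.19 (-0.76 to 0.38) for HSF-6(8). The intervals of NNAT, 3.23 to 4.64 and 3.00 to 4.42, lay above those of its host transcript. In both treated groups the third array held the lowest BLCAP signal, as it did in untreated cells.

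Because NNAT is a brain gene, neural markers are set beside it. Of 20 neural markers listed, 14 passed the filter. Of these, 3 were called higher in treated HSF-6(8), against 0.273% of all tested probe sets (0.314% in HSF-6(S9)). They were GAD1, which makes the transmitter GABA, and the neurofilament genes NEFL and NEFM. In HSF-6(S9) these and PAX3, a neural tube factor, were called, and without the first HSF-6(S9) array GAD1 and NEFL were (adjusted p = 0.0105 and 0.0194) while NEFM (0.0562) and PAX3 (0.104) were not. Over the 14 the median log2 differences were 0.80 and 0.98 for HSF-6(S9) and HSF-6(8), and NEUROG1 and NEUROG2 stayed below the median on every array. Without the first HSF-6(S9) array TUBB3, STMN2, SOX10 and ELAVL3 gave 0.19, 0.22, 0.01 and -0.21 in that subline. MAP2 and NCAM1 gave 2.85 and 2.05 there and were not called either. The summed signal of the list was 33149 to 43562 on HSF-6(S9), 33060 to 38343 on treated HSF-6(8) and 26068 to 30516 on untreated arrays. The part of neural markers in the NNAT result was not tested.

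**Figure D2:**
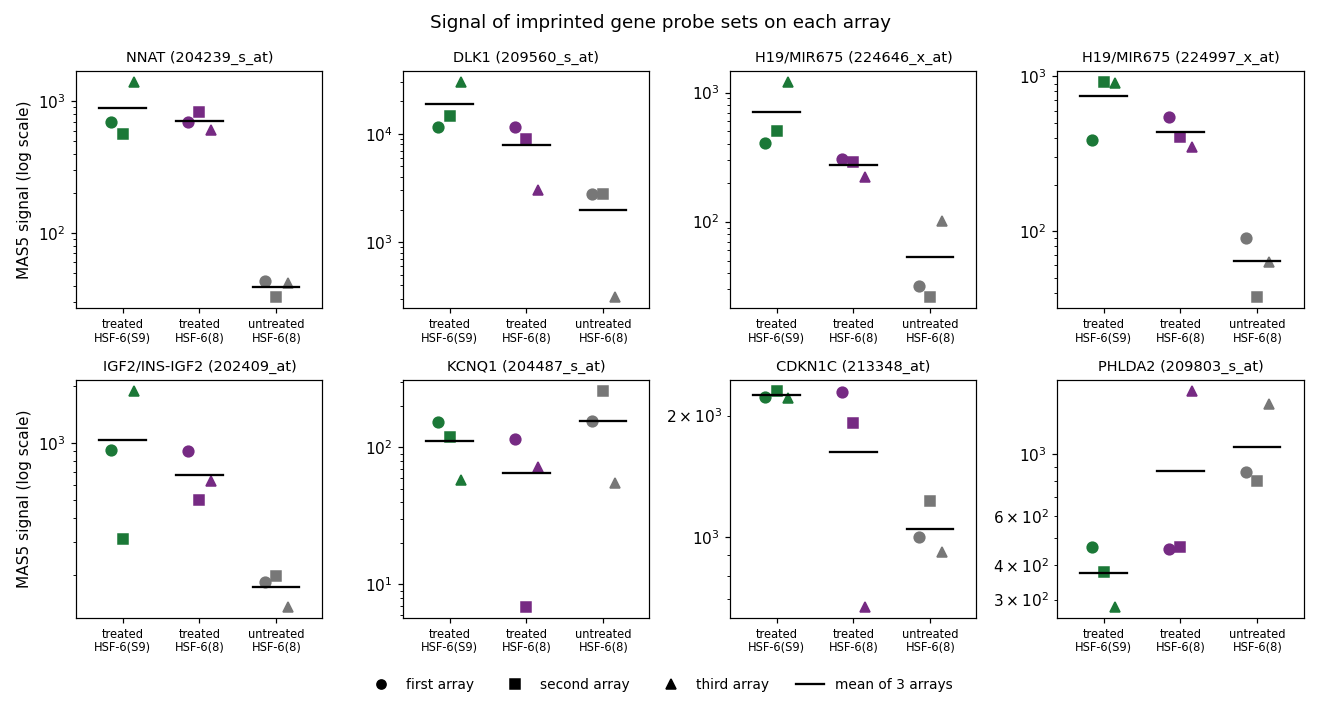
MAS5 signal on a log axis for 8 imprinted probe sets, with treated HSF-6(S9) in green, treated HSF-6(8) in purple and untreated HSF-6(8) in grey, symbols for the first, the second and the third array, and bars for the mean of 3 arrays. NNAT, DLK1, IGF2 and both probe sets of H19 have all treated arrays above all untreated ones, while KCNQ1 overlaps between groups.

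H19, in 11p15, is a maternally expressed long non-coding RNA of the fetus that also carries the precursor of miR-675. The array annotates both of its probe sets jointly to H19 and MIR675, so they do not separate the host RNA from the precursor, and they do not measure the mature forms. Both belong to a design class whose probes may match other transcripts as well. The mature sequences (RefSeq, GRCh38.p14, minus strand of chromosome 11) are shown because this transcript carries the second called change, with the seed, bases 2 to 8, in capitals.
hsa-miR-675-5p: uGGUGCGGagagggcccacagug
hsa-miR-675-3p: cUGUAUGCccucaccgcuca
They lie at chr11:1996800-1996822 and chr11:1996768-1996787, and their seeds differ.

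The first H19 probe set had signals of 390, 927 and 910 on the HSF-6(S9) arrays and 551, 406 and 349 on the treated HSF-6(8) arrays, against 90.8, 37.3 and 63.5 on untreated arrays. The lowest treated signal was more than 3 times the highest untreated one, with no overlap. The log2 difference was 3.20 ± 0.38 for HSF-6(S9) (adjusted p = 0.0103) and 2.53 ± 0.38 for HSF-6(8) (adjusted p = 0.0358). The second read 404, 504 and 1216 on HSF-6(S9), 307, 289 and 223 on treated HSF-6(8) and 31.7, 25.9 and 102 on untreated arrays. Its groups did not overlap either, and its log2 differences were 3.38 ± 0.47 (adjusted p = 0.0251) and 2.21 ± 0.47 (adjusted p = 0.145), so only the HSF-6(S9) value was called.

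The H19 calls were less firm than that of NNAT, although each difference kept its direction under the alternatives run. For the first probe set in HSF-6(8), adjusted p ran from 0.0159 to 0.144 over 20 alternatives. It missed the threshold without any single treated HSF-6(8) array, any single untreated array or the second HSF-6(S9) array (0.0603 to 0.139), with the arrays paired by their marks as a replicate block (0.0516), with quantile normalization (0.0511), with no filter (0.0684) and with only the first and second arrays (0.144). The second probe set was called in HSF-6(8) under that last setting (2.81, adjusted p = 0.0169), with a batch term for the third arrays (0.0415) and as the mean of both (0.0237), within 0.0169 to 0.421 over its alternatives. In HSF-6(S9), the second probe set missed it without the first treated HSF-6(8) array (0.0531), the second HSF-6(S9) array (0.0694), the third of that group (0.0559) or the first or second untreated array (0.104 and 0.111), within a range of 0.00386 to 0.111. The first one in HSF-6(S9) missed it without the third HSF-6(S9) array (0.0514) or the second untreated array (0.0501), or with only the first and second arrays (0.116), within 0.00386 to 0.116. Without the first HSF-6(S9) array the differences were 3.61 and 3.69 in that subline (adjusted p = 0.00722 and 0.0448).

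The 250 bases before the annotated H19 start (chr11:2001267-2001516, minus strand, GRCh38.p14, RefSeq) are shown with each CpG, the dinucleotide that carries imprinting methylation, in capitals. The same window of MEG3 (chr14:100825858-100826107, plus strand), another maternally expressed non-coding RNA, is set below it because that gene stayed dim.
H19: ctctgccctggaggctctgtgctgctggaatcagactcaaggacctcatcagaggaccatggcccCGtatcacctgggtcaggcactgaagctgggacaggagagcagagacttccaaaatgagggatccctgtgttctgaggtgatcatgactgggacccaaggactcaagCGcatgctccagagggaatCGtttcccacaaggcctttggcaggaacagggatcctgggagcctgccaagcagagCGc
MEG3: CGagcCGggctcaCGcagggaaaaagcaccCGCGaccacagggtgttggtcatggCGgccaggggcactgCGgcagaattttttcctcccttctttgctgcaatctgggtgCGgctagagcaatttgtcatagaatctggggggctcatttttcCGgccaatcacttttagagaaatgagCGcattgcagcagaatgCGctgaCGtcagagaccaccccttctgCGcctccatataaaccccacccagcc
H19 has 4 CpG in this window and MEG3 has 13, while the median over 35116 human promoters is 11.

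Windows were found for 21 of the 32 genes, NNAT, DLK1 and IGF2 not among them. The median of the 21 was 16 CpG, ranging from 4 in H19 and RTL1 to 38 in TP73. The hexamer TGCCGC, known as the methylated target of ZFP57 in the mouse, was searched on both strands. It was found in 5 of 21 windows (23.8%), those of L3MBTL1, MEG3, NDN, GRB10 and NAP1L5, against 12.7% of all promoters. The hexamer itself holds a CpG, and the 21 windows had a median of 16 CpG against 11 for all promoters. Whether the shares differ at equal CpG number was not tested. Each window covers only the 250 bases before an annotated start, so imprint control regions elsewhere were not searched. The matches are letters in a window, and the array holds no methylation values.

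IGF2, the paternally expressed fetal growth factor gene next to H19, was measured by probe sets annotated jointly to IGF2 and INS-IGF2. The brightest had signals of 919, 310 and 1875 on HSF-6(S9), 908, 497 and 629 on treated HSF-6(8) and 184, 197 and 135 on untreated arrays. All treated arrays lay above all untreated ones, but the HSF-6(S9) arrays spread widely among themselves. The log2 differences of 2.16 ± 0.54 for HSF-6(S9) (adjusted p = 0.162) and 1.86 ± 0.54 for HSF-6(8) (adjusted p = 0.322) were not called. Leaving out the second HSF-6(S9) array gave 2.84 in that subline (adjusted p = 0.0425, within 0.0425 to 0.365 over the alternatives), and leaving out the first gave 2.08 (0.248).

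The other IGF2 probe sets gave other patterns. The dimmer tested one read 35.3, 35.4 and 246 on HSF-6(S9), 38.8, 44.2 and 74.5 on treated HSF-6(8) and 95.0, 85.1 and 7.28 on untreated arrays, with overlapping groups and log2 differences of 0.47 and 0.06. Another did not pass the filter and reached 451 on the third HSF-6(S9) array alone. IGF2R, listed here as maternally expressed, clears IGF2 from the cell surface. Its log2 differences were 0.00 to 0.12 over both comparisons and both tested probe sets. Of 17 tested IGF signalling partners 0 were called, with medians of 0.03 and 0.03, and the largest value was 1.61 for STC1 in treated HSF-6(8) (adjusted p = 0.206).

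DLK1, in 14q32, encodes a paternally expressed membrane protein that holds progenitor cells back from differentiating. Its main probe set had signals of 11643, 14606 and 30268 on HSF-6(S9), 11611, 9037 and 3047 on treated HSF-6(8) and 2802, 2795 and 310 on untreated arrays. The 3 groups did not overlap, but the third array was the highest in HSF-6(S9) and the lowest in both HSF-6(8) groups. The log2 differences of 3.66 ± 0.85 (95% interval 1.75 to 5.56, adjusted p = 0.133) and 2.32 ± 0.85 (0.41 to 4.23, adjusted p = 0.496) were not called. Between arrays of the same mark, treated minus untreated HSF-6(8) was 2.04, 1.69 and 3.23.

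With only the first and second arrays the DLK1 difference was 2.21 ± 0.22 in HSF-6(S9), which was called (adjusted p = 0.0404, within 0.0404 to 0.358 over the alternatives), and 1.87 ± 0.22 in HSF-6(8) (adjusted p = 0.0599). Without the first HSF-6(S9) array it was 3.94 (0.172). The dimmer probe set had 94.5, 81.7 and 154 on HSF-6(S9), 92.3, 54.8 and 45.9 on treated HSF-6(8) and 3.44, 43.2 and 8.20 on untreated arrays. All treated arrays again lay above the untreated ones, with log2 differences of 2.01 ± 0.42 (adjusted p = 0.107) and 1.36 ± 0.42 (adjusted p = 0.368), and the HSF-6(S9) one was called without the second untreated array (2.50, adjusted p = 0.0464).

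MEG3 shares the control region of DLK1 and is expressed from the other, maternal, copy. Its 10 probe sets stayed at or below 97.5 on every array, mostly under the array medians, and 9 of them did not pass the filter. The tested one read 59.3, 73.1 and 64.6 on HSF-6(S9), 69.8, 73.1 and 97.5 on treated HSF-6(8) and 76.4, 36.8 and 80.0 on untreated arrays, with log2 differences of 0.07 (-0.50 to 0.64) and 0.30 (-0.28 to 0.87). DIO3, an iodothyronine deiodinase gene at the far end of this locus, had log2 differences of 1.44 ± 0.34 and 1.24 ± 0.34 (adjusted p = 0.144 and 0.28), and neither was called.

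**Figure D3:**
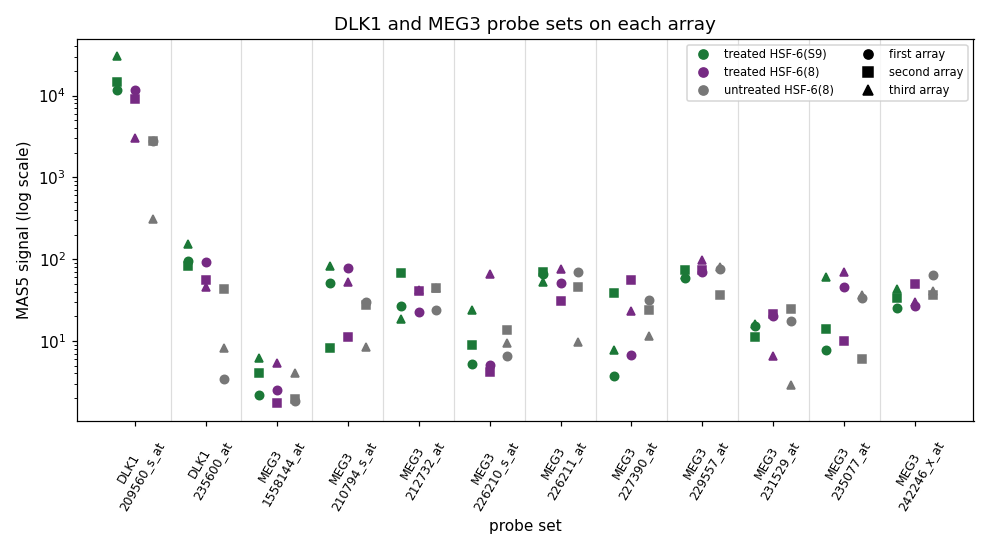
MAS5 signal on a log axis for the 2 probe sets of DLK1 and the 10 of MEG3, with groups in colour and the array number as symbol. The main DLK1 probe set reaches 30268, while every MEG3 probe set lies at or below 97.5 on all 9 arrays.

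The KCNQ1 domain, next to H19 in 11p15, holds maternally expressed genes that the paternal antisense RNA KCNQ1OT1 silences. CDKN1C, a cyclin-dependent kinase inhibitor that restrains growth, had signals of 2228, 2299 and 2207 on HSF-6(S9), 2287, 1922 and 670 on treated HSF-6(8) and 1002, 1226 and 916 on untreated arrays. HSF-6(S9) lay apart from untreated cells, whereas the third treated HSF-6(8) array lay below every untreated one. The log2 difference was 1.10 ± 0.40 for HSF-6(S9) (adjusted p = 0.332) and 0.46 ± 0.40 for HSF-6(8) (adjusted p = 0.963).

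The other 3 tested CDKN1C probe sets had log2 differences of 0.98 to 1.19 in HSF-6(S9), each with groups apart, and of 0.39 to 0.51 in HSF-6(8), each overlapping. None of these was called, although the brightest one, given above, was called in HSF-6(S9) with the third treated HSF-6(8) array left out (0.0493, within 0.0493 to 0.577). Without the first HSF-6(S9) array the brightest one gave 1.10 (0.399). The other 3 belong to the design class noted for H19, whose probes may match other transcripts as well.

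PHLDA2, a placental growth restrictor of the same domain, ran the other way in HSF-6(S9). Its signals were 464, 377 and 282 on HSF-6(S9), 456, 465 and 1681 on treated HSF-6(8) and 864, 800 and 1514 on untreated arrays. HSF-6(S9) lay below all untreated arrays, with -1.43 ± 0.49 (adjusted p = 0.296) and -1.59 without the first HSF-6(S9) array (0.312), while in treated HSF-6(8) the first and second arrays were low, the third was the highest of all, and the difference was -0.50 ± 0.49. Genes that share one control region thus had log2 differences of both signs, without a call in either direction.

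KCNQ1, a potassium channel gene, had 154, 120 and 57.9 on HSF-6(S9), 116, 6.83 and 71.4 on treated HSF-6(8) and 156, 257 and 55.3 on untreated arrays. The groups overlapped. Its log2 difference in HSF-6(8) was -1.22 ± 0.69, and -0.48 without the second treated array, which held the reading of 6.83, while HSF-6(S9) gave -0.32 ± 0.69. The transporter gene SLC22A18 overlapped in all groups, at 162 to 891. KCNQ1OT1 itself reached 151 at most, and its tested probe set had log2 differences of 0.52 and -0.21.

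GRB10, in 7p12, encodes an adaptor that dampens insulin and IGF receptor signals and uses the maternal or paternal copy depending on the isoform. Its probe set with the largest difference had 428, 516 and 337 on HSF-6(S9), 463, 664 and 607 on treated HSF-6(8) and 912, 874 and 886 on untreated arrays. The treated arrays of both sublines lay below all untreated ones. The log2 differences were -1.05 ± 0.21 (adjusted p = 0.0915) and -0.63 ± 0.21 (adjusted p = 0.435), and neither was called. The HSF-6(S9) value was -1.06 (0.15) without the first array of that subline. All 3 tested GRB10 probe sets were lower without overlap in HSF-6(S9), at -1.05 to -0.63, and 2 of 3 in HSF-6(8), where the other overlapped at 3320 on the third array.

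GNAS, in 20q13, encodes the stimulatory G protein alpha subunit and has several promoters, some used on one parental copy only. Of its 10 tested probe sets, 5 read between 17146 and 42145 on all arrays with log2 differences of 0.26 to 0.46 in HSF-6(S9) and -0.10 to -0.01 in HSF-6(8). These bright probe sets overlapped between groups, and all 5 belong to the design class noted for H19. Another 2, much dimmer, lay apart from untreated cells in HSF-6(S9), in opposite directions.

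The first of these had 736, 502 and 588 on HSF-6(S9), 699, 694 and 744 on treated HSF-6(8) and 363, 334 and 450 on untreated arrays, all treated arrays being higher. Its log2 differences were 0.64 ± 0.20 (adjusted p = 0.25) and 0.88 ± 0.20 (adjusted p = 0.168). The second had 103, 121 and 40.3 on HSF-6(S9), 149, 129 and 99.4 on treated HSF-6(8) and 264, 252 and 137 on untreated arrays. Its log2 difference was -1.22 ± 0.37 in HSF-6(S9) (adjusted p = 0.238), which lay below untreated cells, and -0.68 ± 0.37 in HSF-6(8), where 1 array overlapped. The HSF-6(S9) value was called with a replicate block (adjusted p = 0.05 after rounding) and when a batch term marked the third arrays (0.0276), within 0.0276 to 0.536 over the alternatives. These GNAS probe sets gave 0.50 and -1.36 (0.378 and 0.249) without the first HSF-6(S9) array.

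Some probe sets followed the array number instead of the group. One GNAS probe set read 543, 402 and 463 on the third arrays of HSF-6(S9), treated HSF-6(8) and untreated HSF-6(8), against 98.8 to 196 on the other 6. One of UBE3A likewise had 5913, 5248 and 5877 on the third arrays and 2094 to 3024 elsewhere. Of the 61 tested imprinted probe sets, 6 had the third arrays of all groups above all others and 4 had them below, which is 9.84% and 6.56%, against 10.9% and 7.47% of all tested probe sets.

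The SNRPN locus in 15q11, whose loss on the paternal copy causes Prader-Willi syndrome and on the maternal copy Angelman syndrome, had 0 called among 14 tested probe sets. Most SNRPN probe sets are annotated jointly with SNURF or with the small nucleolar RNA host of this region. Their log2 differences ran from -0.79 to 0.25 in HSF-6(S9) and from -0.92 to 0.06 in HSF-6(8). One SNRPN probe set was lower without overlap in both, with 6245, 7012 and 3826 on HSF-6(S9), 6273, 6934 and 5173 on treated HSF-6(8) and 10138, 7406 and 7357 on untreated arrays, and differences of -0.57 ± 0.26 and -0.43 ± 0.26. It gave -0.66 (0.433) in HSF-6(S9) without the first array of that group. Another, much dimmer, was lower without overlap in HSF-6(S9) only (-0.70 ± 0.31, adjusted p = 0.441). It had 140, 69.1 and 133 there and 157, 161 and 260 on untreated arrays.

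The other genes of 15q11 overlapped between treated and untreated arrays at 5 of 6 tested probe sets, and 1 of UBE3A was lower without overlap in both sublines. The necdin gene NDN, of the MAGE family, averaged 3107 ± 423 in HSF-6(S9), 2903 ± 267 in treated HSF-6(8) and 2742 ± 329 in untreated cells (SD, n = 3 arrays). Its relative MAGEL2 had log2 differences of 0.27 (-0.46 to 1.01) and -0.08 (-0.82 to 0.66). UBE3A, a ubiquitin ligase gene listed here as maternally expressed, had -0.36 to 0.04 and -0.08 to 0.12 over 4 tested probe sets. The ring finger gene MKRN3 stayed at or below 70.9.

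In 7q21, the retrotransposon-derived placental gene PEG10 was not called at either of its tested probe sets. The brighter one had 6229, 4218 and 4358 on HSF-6(S9), 6375, 4890 and 4688 on treated HSF-6(8) and 3334, 3838 and 3440 on untreated arrays, with no overlap and log2 differences of 0.46 ± 0.21 (adjusted p = 0.471) and 0.58 ± 0.21 (adjusted p = 0.515). Its HSF-6(S9) value was 0.28 (0.654) without the first HSF-6(S9) array. The dimmer one had 570, 551 and 710 on HSF-6(S9), 628, 574 and 933 on treated HSF-6(8) and 251, 419 and 569 on untreated arrays, and overlapped in HSF-6(S9). Its neighbour SGCE, the epsilon-sarcoglycan gene that shares its control region, had -0.30 ± 0.17 and -0.19 ± 0.17, also with groups apart, below untreated cells. PPP1R9A, the neurabin gene, gave -0.24 to -0.08 and -0.15 to -0.12.

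MEST, a paternally expressed gene of mesoderm in 7q32, was bright everywhere. It had 10868, 22392 and 14541 on HSF-6(S9), 11152, 10956 and 10211 on treated HSF-6(8) and 10908, 10606 and 8583 on untreated arrays, with differences of 0.61 ± 0.26 (adjusted p = 0.422) and 0.11 ± 0.26, and 0.85 in HSF-6(S9) without the first array of that group (0.211). The second HSF-6(S9) array was the highest and the first lay among the other groups. The zinc finger gene ZDBF2 in 2q33 and the chromatin gene L3MBTL1 in 20q13 overlapped between groups at every tested probe set.

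The remaining loci were dim. The tested probe set of the zinc finger factor gene PLAGL1 read 78.9, 2.18 and 92.8 on HSF-6(S9), 90.5, 89.5 and 97.1 on treated HSF-6(8) and 71.8, 58.7 and 74.7 on untreated arrays. Its second HSF-6(S9) reading was the only one under 50, and the log2 differences were -0.55 ± 0.57 for HSF-6(S9) and 0.37 ± 0.57 for HSF-6(8). PEG3 reached 29.7 at most on its own probe sets, and the one it shares with ZIM2 gave -0.53 and 0.14. TP73, of the p53 family, gave -0.71 and -0.24, and NAP1L5 and the RAS family gene DIRAS3 stayed at or below 38.6 and 56.7.

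**Figure D4:**
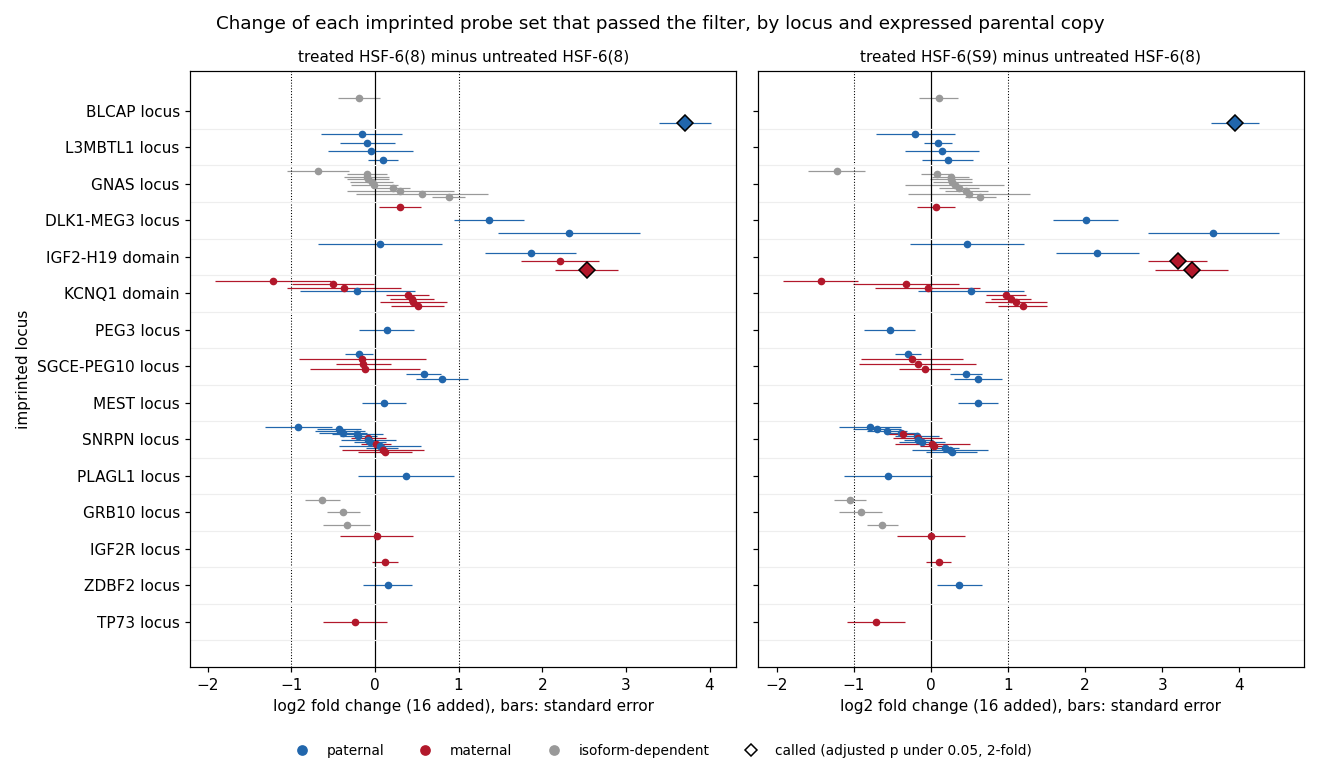
Log2 fold change (16 added) with its standard error for the 61 imprinted probe sets that passed the filter, by locus, with colour for the expressed parental copy and a diamond for called probe sets, and dotted lines at 2-fold. The called probe sets, 2 in HSF-6(8) and 3 in HSF-6(S9), lie at the BLCAP locus (NNAT) and in the IGF2-H19 domain.

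Grouped by the copy listed for each gene, probe sets of genes listed as paternal and as maternal had the same median in HSF-6(8). These medians count probe sets and not genes, so SNRPN entered the paternal group with 8. UBE3A and CDKN1C each entered the maternal group with 4. Which copies these cells used was not measured, including for UBE3A and IGF2R, which are listed as maternal. The 27 tested probe sets of paternally expressed genes had a median log2 difference of 0.18 in HSF-6(S9) and 0.06 in HSF-6(8), with NNAT called in each. The 20 of maternally expressed genes had 0.01 and 0.06, with 2 and 1 called, all of H19. The 14 of genes whose copy depends on the isoform (GNAS, GRB10 and BLCAP) had 0.26 and -0.09 with 0 called. Calls were thus found among genes listed under either parental copy. The neighbours IGF2 and H19, listed under opposite copies, had positive differences at the same time.

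Probe sets whose groups did not overlap were also counted, several of them from the same gene. The members were chosen with earlier results of these data known, so the shares below do not test the set. In HSF-6(S9) 13 of 61 (21.3%) were higher and 9 (14.8%) lower than untreated HSF-6(8) without overlap, while over all tested probe sets it was 9.07% and 8.35%. In HSF-6(8) it was 10 (16.4%) and 5 (8.20%), against 8.82% and 6.04%. At least 2-fold higher were 9 and 6 of 61, against 2.61% and 2.47% of all, and these came from NNAT, H19, IGF2, DLK1 and, in HSF-6(S9), CDKN1C. At least 2-fold lower were 3 in HSF-6(S9), of GNAS, PHLDA2 and GRB10, and 1 in HSF-6(8), that of KCNQ1, against 1.51% and 0.631% of all. At an unadjusted p under 0.05, 12 (19.7%) were higher and 6 (9.84%) lower in HSF-6(S9), against 6.0% and 5.26% of all. In HSF-6(8) it was 9 (14.8%) and 2 (3.28%), against 5.11% and 2.41%.

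Without the first HSF-6(S9) array, 16 of 61 (26.2%) were higher and 14 (23.0%) lower in HSF-6(S9) without overlap, against 12.7% and 15.5% of all, for 2 arrays set against 3. At least 2-fold higher were 10 and lower 5, against 3.16% and 2.93%. At an unadjusted p under 0.05, 13 were higher and 9 lower, against 5.55% and 6.85%.

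Between the treated sublines, 2 of 61 imprinted probe sets (3.28%) were higher in HSF-6(S9) without overlap and 0 lower, against 2.41% and 4.05% of all. They were the main one of DLK1 (1.33 ± 0.85) and the second of H19 (1.17 ± 0.47, 95% interval 0.11 to 2.24, adjusted p = 1). The other tested probe set of each gene overlapped, at 0.65 for DLK1 and 0.67 for H19. The lowest HSF-6(S9) signal of the main DLK1 probe set, 11643, and its highest treated HSF-6(8) signal, 11611, both came from the first arrays. Those 2 arrays resembled each other across the array. The median over the 61 was 0.06, against -0.04 for all tested probe sets.

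Among imprinted genes outside the 32, 1 was called higher in HSF-6(8), where 0.273% of all tested probe sets were. Of 39 listed, 18 passed the filter and 12 lay below the median on every array. NLRP2, an oocyte and early embryo gene, had 314, 312 and 334 on HSF-6(S9), 351, 342 and 411 on treated HSF-6(8) and 149, 129 and 71.4 on untreated arrays, a pattern with no overlap. It was called in HSF-6(8) (1.58 ± 0.24, adjusted p = 0.0408) and not in HSF-6(S9) (1.39 ± 0.24, adjusted p = 0.0562, or 1.40 and 0.117 without the first array of that group). The medians were 0.10 and 0.06.

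Of 24 tested factors linked to imprints, TET1, TET2, TET3 and CTCFL among them, 0 were called, with medians of 0.16 and 0.15. The largest value belonged to CTCFL, a germ cell relative of CTCF, which had 238, 320 and 471 on HSF-6(S9), 268, 442 and 261 on treated HSF-6(8) and 81.9, 68.5 and 8.43 on untreated arrays. All treated arrays were higher, with 2.56 ± 0.50 (adjusted p = 0.0857) and 2.49 ± 0.50 (adjusted p = 0.122), but neither was called. CTCFL gave 2.79 in HSF-6(S9) without the first array of that group (0.119).

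Genes next to the imprinted loci were compared as well. They were the nearest 3 on each side of each locus that had a tested probe set of their own. Some, such as DIO3 and SGK2, are also among the other imprinted genes listed, and some lay far off, such as EGFR at 4226 kb. Among these 100 genes, 1 was called higher in each subline against untreated cells, with medians of 0.03 and 0.00. Over all tested probe sets 0.314% were called higher in HSF-6(S9) and 0.273% in HSF-6(8). The called gene was WLS, which carries WNT proteins to the cell surface and lies beside DIRAS3. WLS had 1706, 1405 and 2867 on HSF-6(S9), 1567, 1845 and 1480 on treated HSF-6(8) and 225, 247 and 98.1 on untreated arrays, with all treated arrays higher. The WLS differences were 3.31 ± 0.36 (adjusted p = 0.0067) and 3.08 ± 0.36 (adjusted p = 0.00906), and 3.39 in HSF-6(S9) without the first array of that group (0.0312). DIRAS3 itself had 41.4, 54.9 and 38.2 on HSF-6(S9), 11.4, 13.9 and 56.7 on treated HSF-6(8) and 4.38, 22.9 and 13.4 on untreated arrays, and did not pass the filter.

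Markers of the cultured cells were read beside these results. SOX2, a defining factor of pluripotent cells, lay at 15792 to 37824 on all arrays, NANOG at 4306 to 9070, and 0 of 16 tested pluripotency markers were called, with medians of -0.28 and -0.22. Their largest value was -3.00 ± 0.70 for LEFTY1 in HSF-6(S9) (adjusted p = 0.133). Endoderm markers had 0 called of 15, with medians of 0.99 and 1.61 and summed signals of 12381 to 14956 on HSF-6(S9), 12574 to 32552 on treated HSF-6(8) and 9839 to 10360 on untreated arrays. Their largest value was 3.04 ± 0.64 for GATA6 in treated HSF-6(8).

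The third treated HSF-6(8) array had the highest endoderm sum, 32552, and the highest stromal and mesoderm sum, 70504. On this 1 array DLK1 and both H19 probe sets were the lowest of its group, while the brightest IGF2 probe set, at 629, lay between 497 and 908. The third untreated array also had the lowest main DLK1 signal of its group, 310, but neither H19 probe set was lowest there. Its endoderm sum, 9839, was the lowest of all arrays, and its stromal and mesoderm sum, 41649, the highest of its group. The stromal and mesoderm sums were 35294 to 47197 on HSF-6(S9), 35025 to 70504 on treated HSF-6(8) and 31270 to 41649 on untreated arrays, with 0 of 17 called and TBXT the largest in HSF-6(8) at 1.55 ± 0.76. Of 8 tested trophoblast markers 1 was called higher in each, against 0.314% and 0.273% of all tested probe sets. It was the factor gene GATA3 (2.19 ± 0.22 and 2.17 ± 0.22). The sums of the list were 6377 to 7561 on HSF-6(S9), 6032 to 7503 on treated HSF-6(8) and 6100 to 7076 on untreated arrays. CDX2, ELF5 and HSD3B1 of that list lay below the median on every array. The part of other cell types in the H19, IGF2 and DLK1 values was not tested.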

How the data were processed

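RNA was measured on 9 one-colour arrays. Per the submitters' processing notes, the authors processed the scans in Affymetrix Expression Console with MAS5. Versions of either are not stated in the sources. The deposited values are signal intensity on a linear scale, without detection calls, and the trimmed mean of each array lay between 500.061 and 500.076 (2% trimmed at each end), so no further normalization was applied. Arrays carry no count depth, and their number limits the precision. Probe sets were named from the platform annotation with current symbols (SLC22A18 is listed as SLC67A1). Of the members, 87 probe sets named 1 gene and 17 several.

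Log2(signal + 16) of the 29328 probe sets kept by the filter, out of 54613 (62 controls removed), was fitted with limma 3.58.1 in R 4.3.3 (lmFit, eBayes, 3 groups, 6 residual and 3.20 prior degrees of freedom), with two-sided p-values adjusted by Benjamini-Hochberg. The probe set was the unit. Arrays with the same prime mark in their titles correlated after removing group means. The r was 0.32, 0.28 and 0.59 within HSF-6(8), 0.27, 0.22 and 0.41 between treated sublines, and 0.12, 0.20 and 0.54 for HSF-6(S9) against untreated cells. The reported fit did not use the marks, and pairing by them entered only as an alternative, the replicate block. With it, 132 of all tested probe sets were called higher and 16 lower within HSF-6(8), against 80 and 8 in the reported fit. For HSF-6(S9) against untreated cells it was 173 and 60, against 92 and 22. The labels do not explain the marks. Across marks, the first and second arrays correlated as much within HSF-6(8) (0.29 and 0.38). For HSF-6(S9) against untreated cells they correlated more across marks (0.21 and 0.34), and between the treated sublines less (0.06 and 0.15).

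Values per array were given for called members and for the brightest tested probe set of members with a 2-fold change, and for further members chosen after their values were seen. From other lists and neighbours, called genes or the largest change were named. The values without the first HSF-6(S9) array beyond the calls were added after seeing the data. The members and lists were chosen with earlier results of these data known. Sequences are from RefSeq tables.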

Additional observations from a re-analysis of the deposited data

How the results depend on the processing

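The alternatives added 1 or 64 in place of 16, used no filter or the 75th percentile, quantile normalization, 1 probe set or the mean of probe sets a gene, eBayes with trend and robust, a replicate block, a batch term for the third arrays, only the first and second arrays, or left out 1 array. NNAT was called against untreated cells in both sublines under all of them (adjusted p of 0.000294 to 0.0123). The 2 imprinted probe sets called higher in treated HSF-6(8) became 1 with no filter, with quantile normalization and with the replicate block, and 1 to 2 when single arrays were left out. The 3 in HSF-6(S9) became 1 to 4 when single arrays were left out, with the low of 1 without the third HSF-6(S9) array. Called lower in HSF-6(S9) was 1 with the replicate block and with that batch term, the dim GNAS probe set, instead of 0. The replicate block, which pairs arrays by mark, changed no other call of the 61 probe sets. Between the treated sublines, NNAT turned to -0.26 and the brightest of IGF2 to -0.32 with only the first and second arrays, and to -0.15 and -0.29 without the third HSF-6(S9) array. When single arrays were left out their ranges were -0.15 to 0.49 and -0.29 to 0.98. KCNQ1 in HSF-6(S9) turned to 0.02 without the third HSF-6(S9) array and to 0.11 without the second untreated array, with a range of -0.86 to 0.11. None of these reversed values was called, and the cause was not tested.

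Probe sets near the array medians, among them those of MEG3, KCNQ1OT1, PEG3 and TP73, give no firm level in any group.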
